A study of Mus musculus with 6 samples.

Results

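The genes described here are 10 genes of the Hippo, YAP and TAZ system, taken by symbol from a table of 40166 mouse genes. They are the coactivator genes *Yap1* and *Wwtr1* (which encodes TAZ), the DNA-binding partners *Tead1* and *Tead4*, the target genes *Cyr61*, *Ctgf* and *Ankrd1*, and *Amotl2*, *Ajuba* and *Lats2*, which act on YAP and TAZ in turn. All 10 passed the filter on low counts (for 1 group or both, a median of 5 counts or more), as did 15355 genes in all. Bulk RNA was sequenced from 6 tumors of YUMM3.3, a BRAF-mutant mouse melanoma line that had been injected under the skin of C57BL/6 mice. The vehicle group (replicates 7, 8 and 9) had received water by gavage, and the RGS group (replicates 10, 11 and 12) rigosertib, an inhibitor of RAS effector signaling, at 300 mg/kg on 5 days of each week. Both groups were collected after 17 days of treatment, and they share the line, the strain and the route. The model is 1 transplanted line in an immunocompetent host, and whole tumors were extracted. How much of the RNA came from host cells is not known, and the leukocyte genes *Ptprc*, *Adgre1*, *Cd3e* and *Cd8a* were at 0 counts in all 6 libraries. The age and sex of the mice behind each library, and whether the 3 tumors of a group came from 3 mice, are not in the labels. The p-values set the difference between groups against the spread between these tumors, treated as independent. They may be too small if tumors of a group shared a mouse.

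The Hippo pathway is a chain of kinases in which MST1 and MST2 activate LATS1 and LATS2, and these phosphorylate YAP and TAZ so that 14-3-3 proteins hold them in the cytoplasm or they are degraded. When the chain is off, YAP and TAZ enter the nucleus, bind TEAD proteins at the core motif CATTCC and raise the transcription of genes for matricellular proteins, growth and survival. Several targets, such as *Lats2*, *Amotl2* and *Ajuba*, also feed back on the pathway, and in melanoma YAP and TAZ are known for roles in invasion and in drug resistance. These events are largely changes of phosphorylation and location, which transcript counts do not measure.

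The sequence before the start of a member gene is shown first, since TEAD binding sites are what the targets are thought to share. RefSeq windows (GRCm38.p6) from 250 bases before to 50 bases after a start were at hand for 7 of the 10 genes, in 9 windows. *Tead1*, *Tead4* and *Ctgf* had none. CATTCC, searched on both strands, was present in 8 of the 9 windows (88.9%) and in 4817 of 32851 windows of the whole table (14.7%). The 2 *Wwtr1* windows overlap and hold the same site, so 1 site is counted in both. TGANTCA, the core motif of AP-1, was present in 0 of the 9 and in 7.81% of all windows. The letters are a description of these windows and not evidence of binding. The 250 bases before the start are printed for *Cyr61* (chr3:145649986-145650235, minus strand), *Yap1* (chr9:8004597-8004846, minus strand) and *Ajuba* (chr14:54577662-54577911, minus strand), as 1 gene each that was lower, higher and past the threshold in neither direction. They read 5′ to 3′ on the strand of the gene, and capitals mark CATTCC or its reverse complement GGAATG.
Cyr61: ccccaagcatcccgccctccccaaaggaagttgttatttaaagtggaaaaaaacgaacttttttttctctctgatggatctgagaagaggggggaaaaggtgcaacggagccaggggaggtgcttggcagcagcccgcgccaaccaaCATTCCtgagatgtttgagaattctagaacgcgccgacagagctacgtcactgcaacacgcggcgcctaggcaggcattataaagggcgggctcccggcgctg
Yap1: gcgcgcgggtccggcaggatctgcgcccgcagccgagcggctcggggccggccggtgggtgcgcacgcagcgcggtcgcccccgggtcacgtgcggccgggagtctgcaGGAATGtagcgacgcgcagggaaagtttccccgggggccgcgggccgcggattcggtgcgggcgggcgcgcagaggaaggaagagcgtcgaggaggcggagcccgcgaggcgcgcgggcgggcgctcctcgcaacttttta
Ajuba: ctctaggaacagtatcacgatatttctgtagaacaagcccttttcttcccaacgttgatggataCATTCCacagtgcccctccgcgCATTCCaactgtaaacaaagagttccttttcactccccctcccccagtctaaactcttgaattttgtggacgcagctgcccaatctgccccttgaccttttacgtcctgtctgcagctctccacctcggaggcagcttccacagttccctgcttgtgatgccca
In *Cyr61*, which RefSeq lists as Ccn1, the motif began 103 bases before the start, in *Yap1* 141 bases before it, and *Ajuba* had a pair of motifs 186 and 164 bases before it. For *Ankrd1* and *Amotl2*, where annotated exons of the same gene reach into the window, only the 30 bases around each motif are given. The *Ankrd1* motifs lay at chr19:36120037-36120066 and chr19:36119950-36119979 (minus strand), and the *Amotl2* motif at chr9:102717727-102717756 (plus strand), inside the annotated span of the gene.
Ankrd1, 210 bases before the start: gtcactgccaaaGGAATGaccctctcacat
Ankrd1, 123 bases before the start: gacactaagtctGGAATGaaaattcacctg
Amotl2, 65 bases before the start: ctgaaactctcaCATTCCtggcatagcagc
*Wwtr1* held 1 motif, 136 bases before its outer start, and 1 of the *Lats2* windows held it 5 bases after the start. The motif was thus found in the windows of all 3 genes that fell, of *Yap1*, the 1 gene with a window among those that rose, and of the 3 genes with a window that did not pass the test.

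With RGS, 3 of the 10 genes fell (*Cyr61*, *Ankrd1* and *Amotl2*), 3 rose (*Yap1*, *Tead4* and *Ctgf*) and 4 did not pass the threshold (*Wwtr1*, *Tead1*, *Ajuba* and *Lats2*). The threshold was an adjusted p under 0.05 in the quasi-likelihood test of edgeR, adjusted by Benjamini-Hochberg across all 15355 genes. Of all tested genes, 32.8% passed it, 16.5% lower and 16.3% higher with RGS. The groups did not overlap for 6 of the 10 genes, the same 6 that passed, and for 45.8% of all tested genes. The median log2 fold change of the 10 genes was -0.05, and that of all tested genes was also -0.05. The canonical targets did not move together: *Cyr61* and *Ankrd1* fell while *Ctgf* rose.

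**Figure D1:**
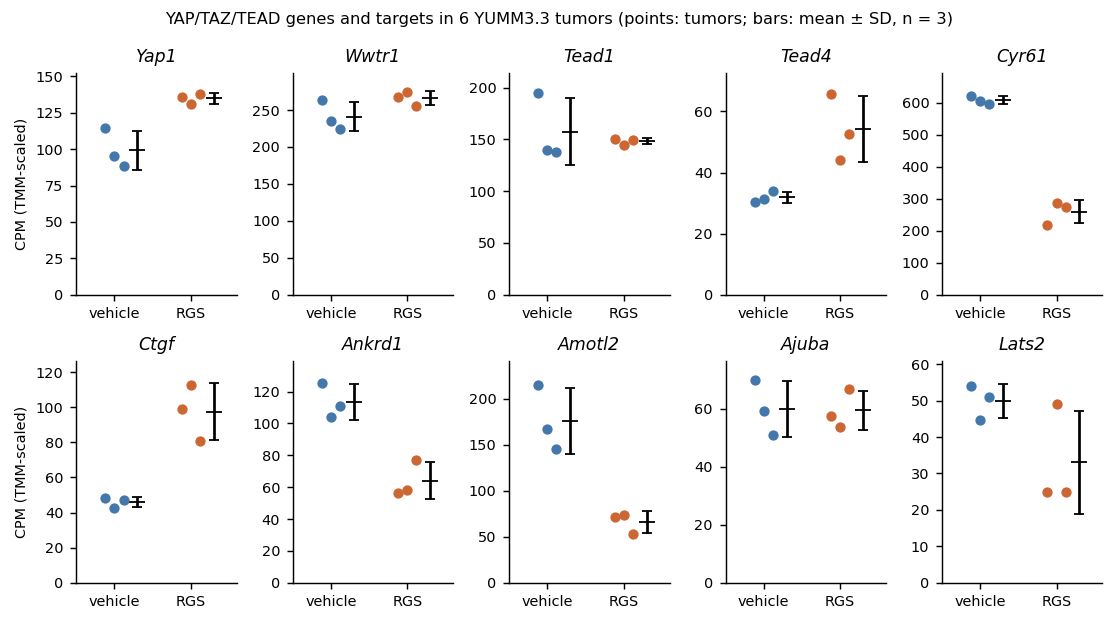
Expression of the 10 genes in each tumor, in CPM (counts scaled to the library total) on TMM-scaled libraries, with an axis from 0 for each gene. Points are tumors, in the order of their replicate numbers, and the bars give the mean ± SD of 3 tumors. *Cyr61* sits between 598 and 623 CPM with vehicle and between 219 and 286 CPM with RGS, while *Ctgf* moves the other way and 1 RGS tumor of *Lats2* lies among the vehicle tumors.

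Per unit of gene length, in RPKM, *Cyr61* was the most abundant of the 10 in both groups, at 302 ± 6.33 RPKM (SD, n = 3) with vehicle and 129 ± 17.7 RPKM with RGS. In vehicle tumors it was followed by *Ankrd1* (64.3 ± 6.24 RPKM), *Wwtr1* (50.5 ± 4.15), *Amotl2* (28.0 ± 5.75), *Ajuba* (16.5 ± 2.63), *Ctgf* (16.1 ± 1.03), *Tead1* (11.6 ± 2.39), *Yap1* (10.7 ± 1.44), *Tead4* (8.87 ± 0.505) and *Lats2* (7.16 ± 0.681). Among neighbors in this order, the ranges of the 3 tumors overlapped for *Ajuba* with *Ctgf* and for *Tead1* with *Yap1*. In RGS tumors the order was *Cyr61*, *Wwtr1* (55.7 ± 1.99 RPKM), *Ankrd1* (36.3 ± 6.53), *Ctgf* (34.1 ± 5.63), *Ajuba* (16.3 ± 1.87), *Tead4* (15.0 ± 3.00), *Yap1* (14.6 ± 0.405), *Tead1* (10.9 ± 0.233), *Amotl2* (10.5 ± 1.88) and *Lats2* (4.74 ± 2.01). Here neighbors overlapped for *Ankrd1* with *Ctgf*, for *Ajuba* with *Tead4*, for *Tead4* with *Yap1* and for *Tead1* with *Amotl2*. TAZ transcripts were thus more abundant per length than YAP transcripts in every tumor, and *Amotl2* moved from between *Wwtr1* and *Ajuba* to between *Tead1* and *Lats2*. The lengths are those of the deposited table, so a level per length depends on which transcripts a tumor uses.

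The coactivators and TEADs addressed whether transcripts of the transcriptional machinery itself changed. *Yap1* (chr9:7931999-8004596) had 114, 95.1 and 88.5 CPM in the vehicle tumors and 136, 131 and 138 CPM in the RGS tumors. Every RGS tumor was above every vehicle tumor, and expression was 1.36-fold higher with RGS (95% interval 1.08 to 1.71; log2 fold change 0.44, SE 0.16, adjusted p = 0.0376). This call was the least secure of the 6: the log2 fold change lay between 0.37 and 0.55 with each tumor left out, and the adjusted p was 0.137 without vehicle replicate 8, 0.147 without vehicle replicate 9, 0.0861, 0.0939 and 0.113 without RGS replicate 10, 11 and 12, and 0.184 with scaling by library size alone. *Wwtr1* (chr3:57455649-57575910) had 263, 235 and 225 CPM with vehicle and 268, 275 and 256 CPM with RGS. The groups overlapped, and the fold of 1.10 had an interval of 0.893 to 1.36 (adjusted p = 0.494).

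The ratio of *Wwtr1* to *Yap1* counts within a tumor does not depend on the scaling between libraries. It was 2.31, 2.47 and 2.54 in the vehicle tumors and 1.97, 2.10 and 1.86 in the RGS tumors. The ratio was lower in all 3 RGS tumors, by 0.31 on the log2 scale. An exact permutation test gave p = 0.1, two-sided, the smallest value that 3 tumors against 3 allow.

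*Tead4* (chr6:128224288-128300823) had 30.4, 31.4 and 33.9 CPM with vehicle and 65.5, 44.1 and 52.7 CPM with RGS. The vehicle tumors lay close together and the RGS tumors were spread above them, so that expression was 1.70-fold higher (95% interval 1.29 to 2.24; log2 fold change 0.76, SE 0.19, adjusted p = 0.00477). *Tead1* (chr7:112679318-112906807) had 195, 140 and 138 CPM with vehicle and 151, 145 and 150 CPM with RGS. All 3 RGS tumors fell between vehicle replicate 7 and the other vehicle tumors, and the fold of 0.942 had an interval of 0.742 to 1.20 (adjusted p = 0.732). The log2 ratio of *Tead4* to *Tead1* rose by 0.81 with RGS, from ratios of 0.156, 0.225 and 0.246 to 0.435, 0.304 and 0.352, with no overlap (exact permutation p = 0.1, two-sided).

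Across the whole TEAD family, *Tead4* made up 19.9%, 23.5% and 27.5% of the summed TEAD RPKM in the vehicle tumors and 37.8%, 28.0% and 34.4% in the RGS tumors. The vehicle tumor with the largest share and the RGS tumor with the smallest were close, but the groups did not overlap. The mean share of *Tead1* went from 30.4% to 24.5% and that of *Tead3* from 12.5% to 8.14%, also without overlap, while *Tead2* held 33.5% and 34.0% with overlapping groups. The exact two-sided permutation p was 0.1 for *Tead1*, *Tead3* and *Tead4* and 0.9 for *Tead2*. The 4 genes summed to 38.0 ± 4.21 RPKM with vehicle and 44.8 ± 2.93 RPKM with RGS (exact permutation p = 0.1). The groups nearly touched, at 42.57 RPKM in vehicle replicate 7 and 42.64 RPKM in RGS replicate 12. Unlike the shares, this sum depends on the scaling between libraries. *Tead2* (log2 fold change 0.26, adjusted p = 0.256) and *Tead3* (-0.41, adjusted p = 0.176) did not pass the threshold on their own.

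**Figure D2:**
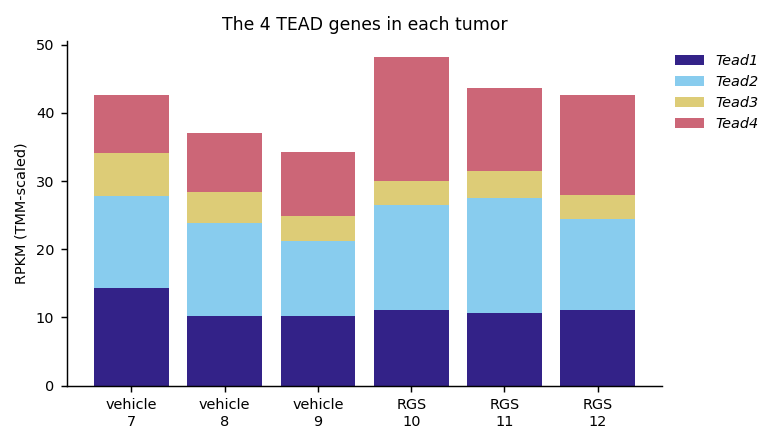
RPKM of *Tead1*, *Tead2*, *Tead3* and *Tead4*, stacked, in each of the 6 tumors on an axis from 0. The *Tead4* segment makes up between 19.9% and 27.5% of the column in the vehicle tumors and between 28.0% and 37.8% in the RGS tumors.

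The secreted targets *Cyr61* and *Ctgf*, also named *Ccn1* and *Ccn2*, encode matricellular proteins of one family and are the transcripts most often read as YAP and TAZ output. *Cyr61* (chr3:145646976-145649981) had 623, 606 and 598 CPM with vehicle and 219, 286 and 274 CPM with RGS. The lowest vehicle tumor was more than any RGS tumor by a wide margin, and expression was 2.34-fold lower with RGS (log2 fold change -1.23, SE 0.15, adjusted p = 6.84e-06). *Ctgf* (chr10:24595442-24598683) had 48.4, 42.7 and 47.1 CPM with vehicle and 99.2, 113 and 80.6 CPM with RGS. It moved in the opposite direction, 2.12-fold higher with RGS (95% interval 1.64 to 2.72; log2 fold change 1.08, SE 0.17, adjusted p = 0.000103). The ratio of *Ctgf* to *Cyr61* counts was 0.0777, 0.0705 and 0.0789 in the vehicle tumors and 0.453, 0.394 and 0.294 in the RGS tumors. The ratio was thus 4.96-fold higher with RGS, with a wide gap between the groups (log2 difference 2.31, exact permutation p = 0.1, two-sided). Since each gene alone separated the groups, in opposite directions, the ratio had to separate them too. Its p-value therefore adds nothing to the results of the single genes.

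*Ankrd1* (chr19:36111965-36119844), an ankyrin repeat protein of the muscle sarcomere and nucleus that is a widely used YAP target, had 126, 104 and 111 CPM with vehicle and 56.4, 58.4 and 77.3 CPM with RGS. All RGS tumors lay below all vehicle tumors, and expression was 1.77-fold lower (log2 fold change -0.83, SE 0.17, adjusted p = 0.00111). With each tumor left out in turn, the log2 fold changes lay between -1.31 and -1.12 for *Cyr61*, between -1.004 and -0.74 for *Ankrd1* and between 0.95 and 1.179 for *Ctgf*.

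**Figure D3:**
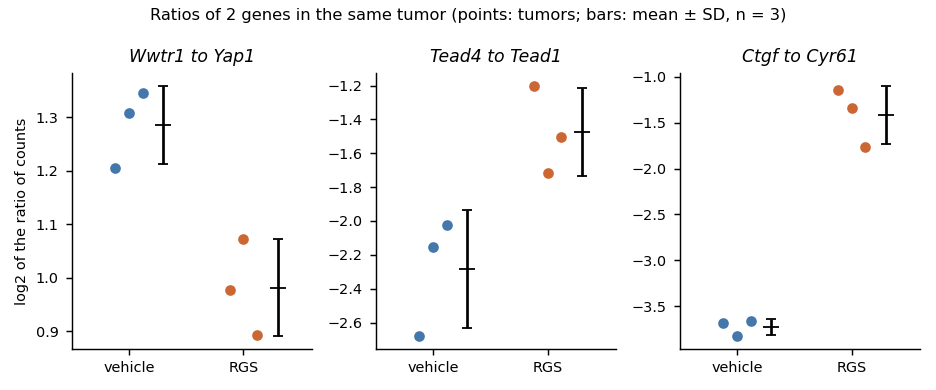
Log2 ratios of the counts of 2 genes within each tumor, for *Wwtr1* to *Yap1*, *Tead4* to *Tead1* and *Ctgf* to *Cyr61*; the axes are cropped and differ between panels. Points are tumors and bars the mean ± SD of 3 tumors. The groups do not overlap in any of the 3 panels, and the largest difference is the 2.31 of *Ctgf* to *Cyr61*.

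The last 3 genes restrain YAP and TAZ or modulate the kinases above them, and are targets as well. *Amotl2* (chr9:102716672-102733418), an angiomotin that binds YAP and keeps it at junctions, had 216, 167 and 145 CPM with vehicle and 72.1, 74.1 and 52.7 CPM with RGS. No tumor overlapped, and this was the largest decrease among the 10 genes, 2.65-fold (log2 fold change -1.41, SE 0.18, adjusted p = 1.2e-05). *Ajuba* (chr14:54567472-54577558), a LIM protein that binds and inhibits LATS kinases, had 70.0, 59.2 and 50.9 CPM with vehicle and 57.6, 53.7 and 67.0 CPM with RGS. Its groups overlapped fully, and the interval of the fold, 0.764 to 1.28 (adjusted p = 0.960), leaves room for changes of that size.

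*Lats2* (chr14:57689662-57758388), the kinase that phosphorylates YAP, had 54.1, 44.8 and 51.0 CPM with vehicle and 24.997, 49.2 and 24.8 CPM with RGS. RGS replicates 10 and 12 lay well below all vehicle tumors, while RGS replicate 11 lay among them. The log2 fold change was -0.60 (SE 0.24, adjusted p = 0.0589), just short of the threshold. Without RGS replicate 11 it was -1.01, with an adjusted p of 0.00206, and it also passed with scaling by library size alone (-0.74, adjusted p = 0.0253) and without the filter on low counts (-0.61, adjusted p = 0.0150). A gene model on the same strand, Gm49361, overlaps *Lats2* and was not analysed here. Of the other gene models that overlap any of the 10 genes none had over 31 counts in a tumor.

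**Figure D4:**
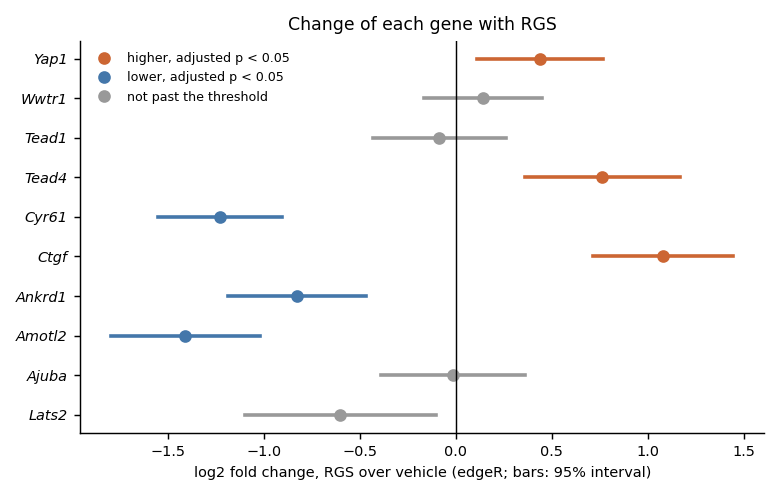
Log2 fold change of each of the 10 genes, RGS over vehicle, from edgeR, with its 95% interval. Genes that passed an adjusted p of 0.05 are orange (higher) or blue (lower), and the zero line marks no change. *Amotl2* (-1.41), *Cyr61* (-1.23) and *Ankrd1* (-0.83) lie left of it and *Ctgf* (1.08), *Tead4* (0.76) and *Yap1* (0.44) right of it, and the *Lats2* interval misses it although its adjusted p is 0.0589.

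Upstream of YAP and TAZ, a list of 36 genes of the kinase core and its regulators had 29 tested, of which 8 rose and 4 fell (41.4% against the 32.8% of all tested genes), with a median log2 fold change of 0.19. *Stk3*, which encodes the Hippo kinase MST2, had 93.2, 81.0 and 76.5 CPM with vehicle and 186, 170 and 185 CPM with RGS. Its expression was 2.16-fold higher (log2 fold change 1.11, adjusted p = 2.2e-05), with no overlap. *Mob1a*, the cofactor of LATS kinases, had 189, 200 and 163 CPM with vehicle and 83.0, 76.8 and 97.7 CPM with RGS, 2.14-fold lower (log2 fold change -1.10, adjusted p = 3.83e-05). *Rassf1*, a scaffold that binds MST kinases, was 2.68-fold lower, going from a mean of 81.9 to 30.6 CPM. The core therefore held changes in both directions, since *Sav1*, the MST scaffold, was also lower (log2 fold change -0.52), as was the MAP4K kinase gene *Map4k3* (-0.55). Neither passed in the absence of vehicle replicate 8 (adjusted p = 0.113 and 0.0594), and *Sav1* also failed without RGS replicate 10 (0.0624) and *Map4k3* without RGS replicate 11 or 12 (0.144 and 0.0807). *Atl1*, on the opposite strand, overlaps *Sav1*, with 1831 counts in all against 12244.

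Among the regulators that rose, the protocadherin gene *Dchs1*, a ligand of FAT4, went from 43.3 to 110 CPM (log2 fold change 1.35). *Taok3*, a kinase upstream of MST, had a log2 fold change of 1.05. The LIM genes *Limd1* (0.95) and *Wtip* (0.77), the relatives of *Ajuba*, rose where *Ajuba* did not pass the test; the difference between them was not tested. *Dlg5*, a scaffold of cell polarity, had a log2 fold change of 0.83 and an adjusted p of 0.0529 without RGS replicate 10. *Nf2* (-0.03), *Stk4* (0.15) and *Mob1b* (0.31) did not pass the test, and *Lats1* was not analysed here. *Tomm34*, on the opposite strand, overlaps *Stk4*, with 8071 counts in all against 4164.

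A list of 21 genes of the STRIPAK phosphatase complex (which opposes MST kinases), of YAP and TAZ degradation and of the 14-3-3 proteins had 20 tested, 8 higher and 3 lower with RGS (55% called against 32.8% of all tested genes), with a median log2 fold change of 0.25. Most of the 14-3-3 genes were called higher, and *Ywhae* was called lower. *Sfn*, the epithelial 14-3-3 sigma and a p53 target, had 6.99, 3.53 and 3.65 CPM with vehicle and 32.5, 37.4 and 35.5 CPM with RGS, 7.38-fold higher (adjusted p = 4.61e-07). *Ywhag* (log2 fold change 1.13) and *Ywhaz* (0.60) also rose, while *Ywhae* fell by 0.81 on the log2 scale. Both casein kinase 1 genes whose products prime YAP and TAZ for degradation rose, *Csnk1e* by 1.03 and *Csnk1d* by 0.85 on the log2 scale. The STRIPAK genes *Strn3* (-1.17) and *Pdcd10* (-1.29) fell.

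Of 7 TEAD partners and other TEAD genes, 5 were tested and 1 passed (20% against 32.8% of all tested genes). *Vgll3*, a cofactor that binds TEADs in place of YAP, had 94.4, 67.4 and 80.4 CPM with vehicle and 25.7, 21.6 and 20.1 CPM with RGS. All RGS tumors were far below all vehicle tumors, 3.59-fold on average (log2 fold change -1.84, SE 0.19, adjusted p = 8.37e-07), beside -1.41 for *Amotl2*, the lowest value among the 10 genes. The other cofactors, *Vgll4* (0.13) and *Wbp2* (0.13), did not pass the test.

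A further 29 genes known as YAP and TAZ targets had 28 tested, of which 6 rose and 12 fell (64.3% called against 32.8% of all tested genes), with a median log2 fold change of -0.07. The largest increase was in *Areg*, the EGF receptor ligand amphiregulin, with 29.2, 32.4 and 39.6 CPM with vehicle and 458, 433 and 486 CPM with RGS (13.6-fold, log2 fold change 3.77, adjusted p = 1.74e-11). *Igfbp3*, which binds insulin-like growth factors, went from a mean of 243 to 1342 CPM (log2 fold change 2.46). The transcription factor gene *Foxf2* (2.03) and the ectonucleotidase gene *Nt5e* (1.70) rose with them. *Thbs1*, encoding thrombospondin 1, rose by 0.63 on the log2 scale. *Thbs1* lost the call without RGS replicate 10 (adjusted p = 0.0535) and with scaling by library size alone (0.0502).

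Among the targets that fell, *Col8a1*, a collagen of vessel walls, had 317, 284 and 237 CPM with vehicle and 50.5, 49.3 and 41.7 CPM with RGS (5.92-fold, log2 fold change -2.57, adjusted p = 2.49e-09). *Gadd45a*, a stress response gene, was at a mean of 509 CPM with vehicle and 172 CPM with RGS (log2 fold change -1.56). The matrix gene *Ccdc80* (-2.16), *Tgfb2*, a TGF-beta ligand (-2.04), and *Crim1* (-1.26) fell as well. *Edn1*, the vasoconstrictor endothelin 1, had 2.37, 3.92 and 3.87 CPM with vehicle and at most 3 counts in each RGS tumor, at least 18.4-fold lower against a floor of 3 counts per library. The known targets that changed were thus found on both sides, as were *Cyr61* and *Ctgf*. With the paralogs of the 10 genes, the 5 lists together held 96 genes, 87 of them tested, of which 23 rose and 21 fell (50.6% called against 32.8% of all tested genes). The lists were chosen with earlier results of these data known, so the called shares of each list are a description and not a test.

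**Figure D5:**
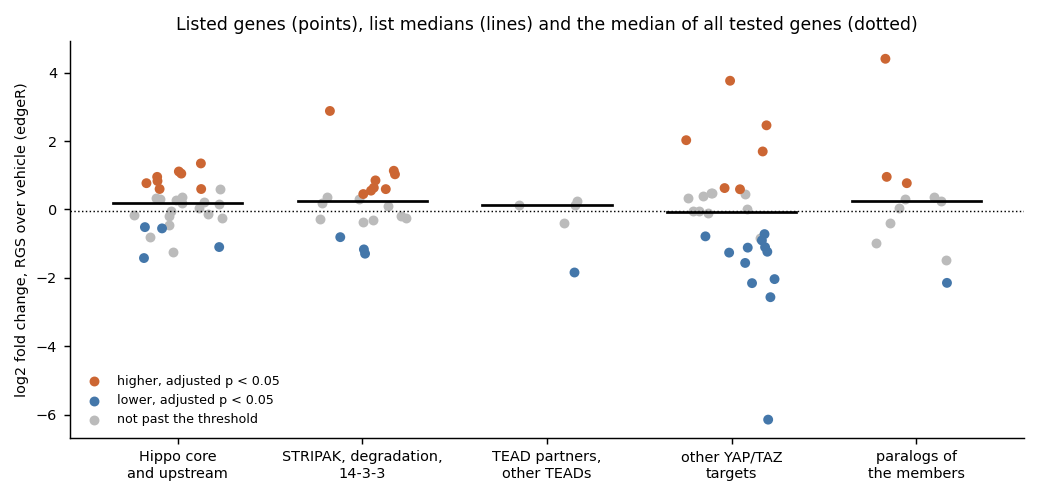
Log2 fold change, RGS over vehicle, of every tested gene of the 5 lists, with the median of each list as a line and the median of all 15355 tested genes as a dotted line. Points are genes, orange or blue where an adjusted p of 0.05 was passed. The medians lie between -0.07 and 0.26, while called genes lie on both sides; the lowest point of all, *Edn1*, and the highest, *Ankrd2*, are fitted to groups with few or no counts and their height depends on the prior.

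Values that moved with the treatment in these libraries were these. Every vehicle library (22793087 to 32555494 counts) was deeper than every RGS library (13837932 to 21617368 counts), and mitochondrial transcripts made up 2.13% to 3.20% of counts with vehicle and 5.60% to 8.22% with RGS. With counts thinned to the smallest library, or with mitochondrial genes left out, none of the calls of the 10 genes changed. Of the defining markers of melanocytes, *Mlana*, *Tyr* and *Dct* were at 0 in all 6 tumors and *Tyrp1* was at or under 3 counts. *Sox10* had 18 counts in RGS replicate 11 and 0 in every other tumor. The genes just named thus did not show the label of a melanoma, and the identity of the tumors was not tested. Of the same list, *Mitf* had 74 to 261 counts in each tumor, *Pmel* at most 25 and *S100b* at most 48. The summed list of 8, mostly *Mitf*, was 4.94 to 7.68 CPM with vehicle and 4.53 to 12.7 CPM with RGS. Beside the leukocyte genes at 0 named above, *Csf1r* was at or under 3 counts in every tumor, and the summed leukocyte list, nearly all *Cd68*, was 58.8 to 65.0 CPM with vehicle and 65.9 to 87.98 CPM with RGS.

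*Cyr61*, *Ctgf* and *Col8a1* are also expressed by fibroblasts, pericytes and vessels, so markers of these cells are given beside them. The summed fibroblast list (8 markers, *Lum* at 0) was lower with RGS, 290 to 320 CPM against 397 to 584 CPM, with 3 genes lower and 1 higher of 7 tested. That fall was mostly *Col1a2*, from a mean of 244 to 147 CPM, and *Pdgfra*, from 179.5 to 110 CPM. *Dcn* instead rose from 1.14 to 10.7 CPM, and *Col1a1* (17.0 and 18.1 CPM) did not pass (adjusted p = 0.811). The pericyte and smooth muscle list was higher, 466 to 519 CPM against 155 to 167 CPM. That rise was *Rgs5*, which went from a mean of 1.30 to 401 CPM, whereas *Acta2*, the smooth muscle actin, went from 88.3 to 18.2 CPM, and of the 6 tested markers 3 rose and 3 fell. The endothelial list, with *Emcn* at 0 and *Tie1* and *Cldn5* at or under 3 counts, was 2.49 to 4.13 CPM with vehicle and 6.55 to 13.9 CPM with RGS. That rise was mostly *Cdh5*, which went from a mean of 0.555 to 6.20 CPM and was the only 1 called of the 4 tested markers. *Vwf* went from 2.27 to 2.87 CPM and did not pass (adjusted p = 0.723). The summed keratinocyte list (0.428 to 1.72 against 0.900 to 3.49 CPM) and skeletal muscle list (6.59 to 11.6 against 4.22 to 8.44 CPM) overlapped, with *Krt1*, *Trp63*, *Dsg3*, *Ckm*, *Myh1*, *Myh4* and *Tnnc2* at 0. The part of these cells in the changes of the 10 genes was not tested, and in bulk tumors fewer cells of a type and less RNA per cell cannot be told apart.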

How the data were processed

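Bulk RNA-seq of 6 YUMM3.3 tumors was used, 3 vehicle and 3 RGS, grouped by the sample titles. The deposited table holds, per gene and tumor, unnormalized read counts made by the authors, with gene length, position and type. Per the submitters' processing notes, cutadapt 1.18, FastQC 0.11.7, STAR 2.7.1a and featureCounts 1.6.4 were used with mm10; the strand setting and the handling of reads that match several genes are not given in the sources used here, so reads of overlapping genes cannot be told apart. Table positions were those of GRCm38, since all 38927 gene identifiers shared with GENCODE M21 had the same start and end.

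From the counts, genes with a median of at least 5 in at least 1 group were kept, scaled by TMM and tested with edgeR 4.0.16 (quasi-likelihood F test, robust off, R 4.3.3), with Benjamini-Hochberg adjustment over 15355 genes. CPM and RPKM use TMM-scaled libraries and errors are SDs of 3 tumors. Floors of 3 counts corresponded to 0.0856 to 0.226 CPM and cover counting error only. Ratios and TEAD shares had exact two-sided permutation tests (the planned ratio of *Lats2* to *Lats1* was not computed, since *Lats1* was not analysed here). The 10 genes and all lists were chosen with earlier results of these data known. All members were named, and of each list up to 6 called genes per direction with groups that do not overlap and at least 1 CPM in the higher group, by absolute log2 fold change, besides listed genes that did not pass; 2 genes that this rule takes are counted but not reported by name here. *Ywhab* and *Ywhah* are named beyond this rule, for calls that changed with the setting. Alternatives were DESeq2 1.42.0, other scaling, filters, dispersions and depth, each tumor left out, and a fold limit. Promoter sequences are from RefSeq. Chi-square per degree of freedom between libraries of a group was 19.7 or more, far over sampling noise, and each was treated as 1 replicate.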

Additional observations from a re-analysis of the deposited data

How the results depend on the processing

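Over 16 alternatives no call of the 10 genes or of the lists changed direction. *Tead4*, *Cyr61*, *Ctgf*, *Ankrd1* and *Amotl2* stayed past the threshold in each of the 15 that kept the threshold, with a largest adjusted p (edgeR or DESeq2) of 0.0418, 0.000307, 0.00145, 0.0130 and 0.000319. A limit of 1 on the absolute log2 fold change left 1 of the 10 genes higher and 2 lower (3 and 3 without it), and 11 list genes higher and 15 lower (23 and 21 without it), by construction. With single tumors left out, 2 or 3 of the 10 genes were called higher and 3 or 4 lower, and 19 to 28 list genes were higher and 19 to 23 lower. Scaling by library size alone moved the median log2 fold change of all genes from -0.05 to -0.19 and the calls from 2503 higher and 2533 lower to 1870 and 3152, and brought the log2 fold change of *Wwtr1* to about 0; the cause was not tested. No paired analysis was possible because the replicate numbers 7 to 12 are not shared between groups. Depth limits genes near 3 counts, such as *Edn1*.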

Other observations

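Of the 13 listed paralogs of the 10 genes, 11 were tested. *Nov*, the third matricellular gene of the *Cyr61* and *Ctgf* family that is also called *Ccn3*, had 17.0, 17.1 and 15.4 CPM with vehicle and 4.02, 4.90 and 2.26 CPM with RGS, without overlap (log2 fold change -2.15, SE 0.34, adjusted p = 9.71e-05). *Ankrd2*, a relative of *Ankrd1*, was at 0, 0 and 0.172 CPM with vehicle and at 2.32, 0.527 and 0.857 CPM with RGS. Its adjusted p was 0.0472 and passed the threshold no longer when vehicle replicate 7 (0.149), vehicle replicate 8 (0.190) or RGS replicate 10, 11 or 12 (0.230, 0.0543 and 0.0790) was left out, with upper-quartile factors (0.0525), with scaling by library size alone (0.0522) and without the filter on low counts (0.0570).

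The genes closest in pattern over the 6 tumors, by the root mean square difference of log2 CPM centred on each gene's mean, among 12238 genes, were *Dzip1* (0.0606), *Myc* (0.0670) and *Asns* (0.0837) for *Cyr61*. For *Ctgf* they were *Maml3* (0.0685), *Usp13* (0.0905) and *Impdh1* (0.102), and for *Ankrd1* they were *Mcu* (0.0732), *Thrb* (0.0740) and *Rfesd* (0.0909). *Myc*, a growth-related transcription factor gene, went from a mean of 322 to 145 CPM. With 2 groups of 3 tumors, this measure follows mainly the difference between groups. *Dzip1*, *Myc* and *Asns* had log2 fold changes of -1.23, -1.15 and -1.28, beside -1.23 for *Cyr61*. Shared regulation was not tested. Among the 10 genes themselves the closest pair was *Tead1* and *Ajuba* (0.116), both without a call.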
